A study of Homo sapiens with 12 samples.

Results

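MicroRNA host genes are transcribed into long RNAs that carry microRNA (miRNA) hairpins in an exon or an intron. They were taken here as every gene whose GENCODE symbol starts with MIR and ends with HG, which gave 84 symbols in GENCODE v44. Of these, 83 were found among the 58051 genes of the count tables, and MIR34BHG was not matched. A host gene was reported when it had at least 10 counts in every library of a cell line, which left 42 host genes, 32 of them in 786-O, 36 in A-498, 31 in ACHN and 24 in all 3 lines. Of the other 41, 33 had no count above 3 in any library and 8 reached a highest count of 8 to 37. Just outside the minimum lay MIR663AHG and MIR497HG in 786-O (lowest count 7), MIR9-1HG in A-498 (9) and MIR378D2HG in ACHN (8), and just inside it MIR3142HG, MIR378D2HG and MIR3677HG in 786-O (10), MIR378D2HG in A-498 (14) and MIR3659HG in ACHN (14).

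RNA-seq counts came from 12 libraries of 786-O, A-498 and ACHN, established human kidney cancer lines that the labels all call clear cell renal cell carcinoma. In 786-O there was 1 library of cells given a control mimic and 1 of cells given a miR-29 mimic, a synthetic double-stranded RNA that adds miR-29 activity. A-498 had 2 libraries of each kind (control replicates 1 and 3, mimic replicates 1 and 2), and ACHN had 3 libraries with a control inhibitor and 3 with a miR-29 inhibitor, an antisense molecule that blocks miR-29. Every group received 10 nM of its reagent by reverse transfection and was lysed 48 h later, and no group was left untransfected. Mimic and inhibitor were never given to the same line, so the line and the direction of the perturbation cannot be told apart.

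A host gene is usually transcribed by RNA polymerase II. The Microprocessor complex cuts the hairpin out of the primary transcript, and Dicer and Argonaute then yield the mature miRNA, which pairs with other RNAs mainly through its seed, nucleotides 2 to 8. The remaining spliced host RNA is a separate product with its own stability, and for several hosts it has been studied as a long noncoding RNA (lncRNA). The counts used here came from reads that lie wholly in exons of the host, so they measured exonic host RNA and not the mature miRNA. Where a hairpin lies in an exon, reads over the unprocessed hairpin count too, and MIR23AHG is annotated as 1 unspliced exon.

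RefSeq miRNA genes were found on the same strand inside 35 of the 42 host genes, and 19 hosts held more than 1. Of the 70 in all, 30 lay in an exon, 35 in an intron and 5 across an exon border. None was found in MIR155HG, MIR22HG, MIR3171HG, MIR3667HG, MIR378D2HG, MIR3936HG and MIR4458HG. MIR155HG is nonetheless the host of miR-155, so these counts depend on the RefSeq records used and can be too low. By these records the let-7 family, which restrains growth and stem cell programmes, was spread over 6 hosts. Its seed is shared by 7 mature miRNAs in these hosts, of which 4, at least 1 for each host, are shown (RefSeq, GRCh38) because hosts with 1 shared seed differed in their response. The seed is in capitals.
hsa-let-7a-5p (MIR100HG, MIRLET7A1HG and MIRLET7BHG): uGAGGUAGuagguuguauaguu
hsa-let-7c-5p (MIR99AHG): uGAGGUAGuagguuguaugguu
hsa-let-7i-5p (MIRLET7IHG): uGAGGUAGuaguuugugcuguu
hsa-miR-4500 (MIR4500HG): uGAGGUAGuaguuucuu

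The next set belongs to the hosts on which the comparisons below turn, and again the seed is in capitals. MIR29B2CHG carries miR-29b-2 and miR-29c, members of the family that was added or blocked. MIR193BHG carries miR-193b and miR-365a, and MIR365BHG carries miR-365b, whose 3p arm has the same sequence as that of miR-365a.
hsa-miR-29b-3p (MIR29B2CHG): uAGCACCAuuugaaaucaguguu
hsa-miR-29c-3p (MIR29B2CHG): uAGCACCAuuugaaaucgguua
hsa-miR-193b-3p (MIR193BHG): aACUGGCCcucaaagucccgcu
hsa-miR-365a-3p (MIR193BHG): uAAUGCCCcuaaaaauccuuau
hsa-miR-34a-5p (MIR34AHG): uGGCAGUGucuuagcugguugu
hsa-miR-210-3p (MIR210HG): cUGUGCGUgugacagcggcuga
hsa-miR-31-5p (MIR31HG): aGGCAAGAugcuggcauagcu
hsa-miR-17-5p (MIR17HG): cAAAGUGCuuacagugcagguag
hsa-miR-146a-5p (MIR3142HG): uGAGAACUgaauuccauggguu
hsa-miR-503-5p (MIR503HG): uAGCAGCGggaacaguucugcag

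Library depth ran from 39919554 to 70027392 reads in genes, and the 42 host genes together took 0.0205% to 0.0318% of them. All 3 ACHN inhibitor libraries were deeper (52369886 to 70027392) than the 3 controls (39919554 to 48626762). A panel of 8 known miR-29 targets, which earlier results of these data had already singled out, was lower in 8 of 8 with the mimic in A-498 and higher in 8 of 8 with the inhibitor in ACHN (median log2 fold changes -1.34 and 0.857), and 7 of 8 had a 786-O ratio below 0. Of 8 kidney lineage and carcinoma markers, 5 were high in the controls of every line. PAX8, KRT8, KRT18, MET and VIM stood at 72.7 CPM (counts scaled to each library's reads in genes) or more. CA9, a marker of clear cell carcinoma, stood at 0.0445 CPM in the 786-O control. Its mean was 0.130 in the ACHN controls against 7.24 in the A-498 controls. PAX2 stood at 30.2 CPM in the 786-O control and at means of 1.27 in A-498 and 6.87 in ACHN controls. NDUFA4L2 was low in all 3, at 0.111, 0.156 and 1.44 CPM in the same order. The 8 markers themselves moved, with 6 of 7 tested higher in A-498 and 4 of 7 lower in ACHN. Their summed level rose from 4500–4700 to 6300–6440 CPM in A-498 and fell from 6460–6880 to 5410–5600 CPM in ACHN. Their part in the results was not tested. The 4 leukocyte markers summed to at most 0.43 CPM and the 3 endothelial markers to at most 0.504 CPM in any library. Only 1 of each kind passed the filter on low counts, in A-498 alone, and neither passed the edgeR test. CD3E, a T cell marker, had 1 count in 1 ACHN inhibitor library and 0 in the other 11.

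In the control libraries many genes differed between the lines, and host genes were among them. The plot of control levels shows that MIR22HG, MIR1915HG and MIR4435-2HG were each well above the count minimum in all 3 lines. Of the 42, 18 reached it in 1 or 2 lines only, and the same share among all genes was not counted. MIR31HG, the host of miR-31, had 635 and 610 counts in the A-498 controls, 24 in the 786-O control and 0 in all 6 ACHN libraries. Against a floor of 3 counts over the ACHN control group, it was at least 469-fold higher in A-498. MIR493HG, which lies in the imprinted cluster of chromosome 14 and carries 8 RefSeq miRNAs, was at 0 in every 786-O and A-498 library and at a mean of 4.91 CPM in the ACHN controls, at least 189-fold above A-498. Of its exon bases 56.1% are shared on the same strand with MEG3, MEG8 and neighbouring transcripts, so reads there cannot be assigned to 1 gene. MEG3 itself had a mean of 56.1 CPM in the ACHN controls.

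**Figure D1:**
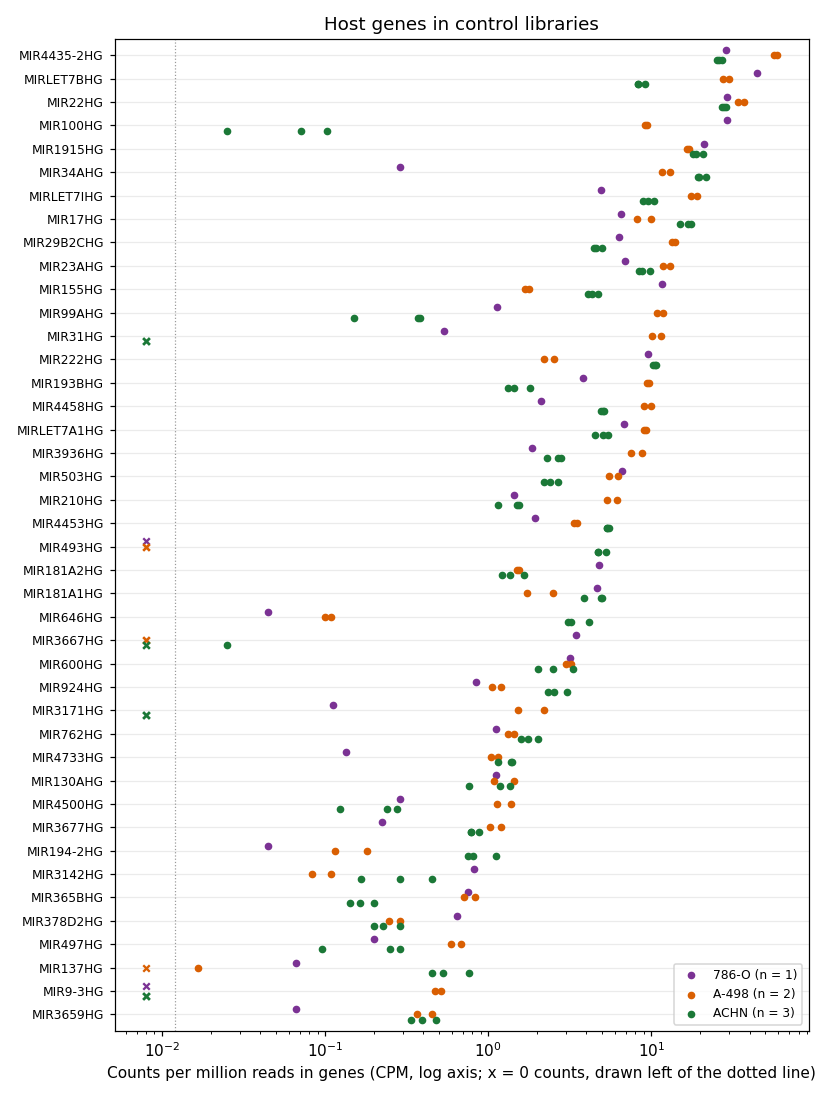
Level of the 42 reported host genes in each control library, in CPM on a log axis, with 1 point per library for 786-O (n = 1), A-498 (n = 2) and ACHN (n = 3) and a cross for 0 counts. Host genes are ordered by their highest line mean, and MIR31HG, MIR493HG, MIR3171HG, MIR9-3HG, MIR3667HG and MIR137HG have crosses in 1 or more lines.

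Between the A-498 and ACHN controls, 20 of 40 host genes over the count minimum in either line were higher in A-498 and 12 were higher in ACHN (edgeR, adjusted p under 0.05). Of all 19689 genes tested, 41.0% were called higher in A-498 and 38.7% higher in ACHN, so calls were common throughout. Of the 40, 13 passed the minimum in only 1 of the lines, which favours a difference, and 12 of these were called (8 higher in A-498 and 4 in ACHN). Of the 27 over the minimum in both lines, 12 were higher in A-498 and 8 in ACHN. The cell line and the control reagent (mimic or inhibitor) cannot be told apart here. MIR100HG, a let-7a, miR-100 and miR-125b host, had 504 and 566 counts in the A-498 controls, 1312 in the 786-O control and 5, 3 and 1 in the ACHN controls. MIR99AHG, a host of miR-99a and let-7c, stood at 10.9 and 11.8 CPM in A-498 and at 0.370, 0.382 and 0.150 CPM in ACHN (log2 difference 5.19, SE 0.171, adjusted p = 1.72e-16). Both hosts were thus far lower in ACHN than in A-498, with no overlap between the groups. The other let-7 hosts leaned the same way, by 1.73 for MIRLET7BHG, 0.91 for MIRLET7IHG, 0.86 for MIRLET7A1HG and 2.58 for MIR4500HG on the log2 scale, each called higher in A-498.

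MIR222HG, which carries the growth-promoting pair miR-221 and miR-222, was in contrast higher in ACHN, at 10.2, 10.6 and 10.47 CPM against 2.20 and 2.55 in A-498 (log2 difference -2.14, SE 0.102, edgeR adjusted p = 8.32e-14). MIR34AHG, the host of the growth-restraining miR-34a, stood at 19.6, 21.5 and 19.4 CPM in the ACHN controls and at 13.0 and 11.7 CPM in the A-498 controls, yet had 13 and 3 counts in the 2 libraries of 786-O. CDKN1A, a cell cycle inhibitor gene, and MDM2, a ubiquitin ligase gene, were likewise lowest in the 786-O control (21.1 and 88.4 CPM, against means of 276 and 940 in the ACHN controls). MIR137HG had 0 and 1 counts in the A-498 controls and a mean of 0.58 CPM in the ACHN controls. MIR3171HG and MIR9-3HG were at least 80.5-fold and 21.4-fold higher in A-498 than the floor in ACHN, where both were at 0.

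Levels can be compared between genes only per length, and on the scale of CPM per kb of exon MIR22HG was highest in all 3 lines, at 9.38 in 786-O (n = 1), 11.4 ± 0.721 in A-498 (SD, n = 2) and 8.99 ± 0.210 in ACHN (SD, n = 3). MIRLET7BHG followed in 786-O (6.91) and A-498 (4.45 ± 0.260), and MIR1915HG in ACHN (4.71 ± 0.348). In A-498, MIRLET7BHG and MIR1915HG (4.14 ± 0.0658) differed by little more than their spread. MIR155HG, the host of the immune miRNA miR-155, was the third highest in 786-O (6.56), MIR210HG the fourth in A-498 (2.48 ± 0.246), and MIR222HG the third in ACHN (3.64 ± 0.0792). MIR4733HG was the fourth in ACHN (2.66 ± 0.287), next to MIR155HG (2.46 ± 0.163), from which it was not separated by its spread. It stood at 1.38, 1.15 and 1.40 CPM there against 1.62, 1.78 and 1.14 with the inhibitor, at 1.16 and 1.04 against 1.19 and 1.49 CPM in A-498, and had 6 and 14 counts in 786-O. MIR4733HG is a short gene of 492 nt with 29.1% of its exon bases opposite to NF1. With the longest transcript as the length, 3 of the 4 highest kept their place among the 4 highest in each line, and MIR181A2HG, MIR4435-2HG and MIR34AHG entered in 786-O, A-498 and ACHN.

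**Figure D2:**
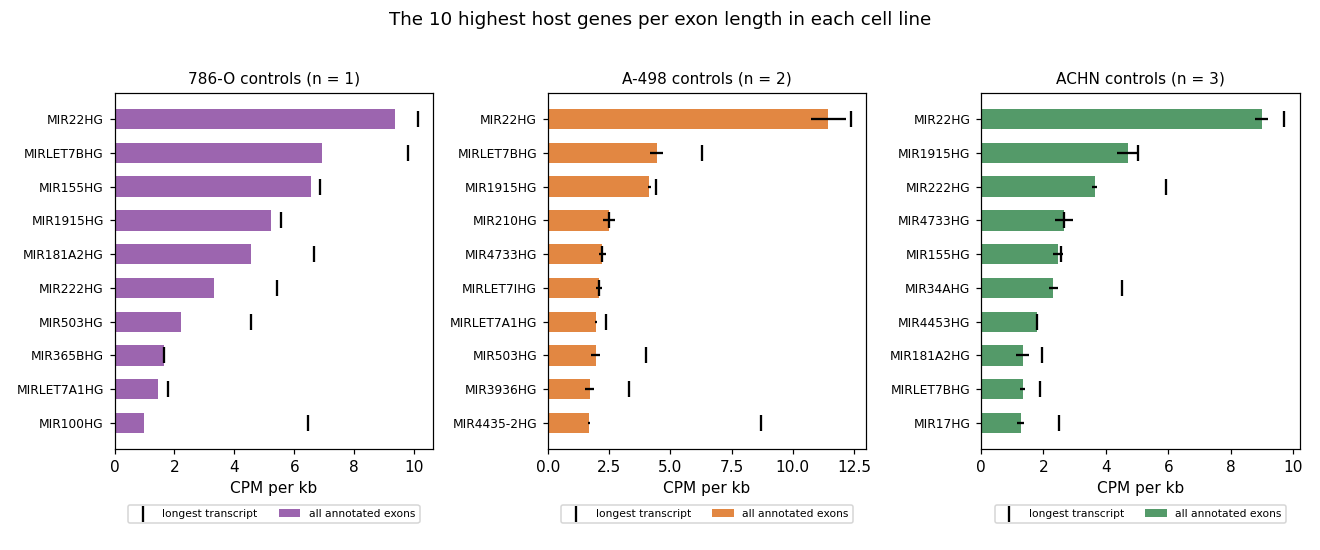
The 10 highest host genes per exon length in the controls of each line, in CPM per kb, where bars give the mean over all annotated exons with SD (no SD for 786-O, n = 1) and ticks the value with the longest transcript as the length. MIR22HG leads in each line, between 8.99 and 11.4.

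MIR29B2CHG is the host of miR-29b-2 and miR-29c (chromosome 1, 207760650 to 207879115, minus strand, GRCh38), so its RNA was examined first. In A-498 it stood at 13.39 and 14.01 CPM in the controls and at 13.99 and 15.19 CPM with the mimic. Its groups overlapped, with a log2 fold change of 0.01 (SE 0.0728, edgeR adjusted p = 0.9). In ACHN it stood at 4.48, 5.02 and 4.58 CPM in the controls and at 6.21, 6.70 and 5.91 CPM with the inhibitor. Every inhibitor library was above every control, with a log2 fold change of 0.43 (SE 0.0924, adjusted p = 0.00148, 0.000258 to 0.00999 over 10 alternatives). In 786-O, 283 counts in the control and 190 with the mimic gave a log2 ratio of -0.59 (95% counting interval -0.87 to -0.32).

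With the mimic in A-498, 13 of 36 host genes were lower and 5 were higher, and their median log2 fold change was -0.12 against 0.005 over all genes. Of all 19676 genes tested, 27.0% were called lower and 25.5% higher, and of the 3198 lncRNA genes tested 14.8% were lower and 14.5% higher. The shares among host genes were 36.1% lower and 13.9% higher. Host genes were held to the count minimum and the other genes only to the edgeR filter on low counts. These shares are thus not matched for level. When libraries were scaled by their size alone, without TMM factors, the calls over all genes went from 5313 lower and 5015 higher to 4352 and 6191, and those of host genes to 12 and 8.

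The largest fall was that of MIRLET7IHG (chromosome 12, 62602752 to 62622213), which carries let-7i in an intron. It went from 17.4 and 19.04 CPM in the controls to 8.38 and 8.48 CPM with the mimic, with no overlap (log2 fold change -1.19, SE 0.0759, edgeR adjusted p = 9.74e-09). MIR193BHG (chromosome 16, 14301389 to 14331067) went from 9.71 and 9.47 to 5.14 and 4.76 CPM (log2 fold change -1.03, SE 0.0903, adjusted p = 2.91e-07). In both hosts each mimic library was below each control library. MIRLET7IHG stood at 9.60, 10.4 and 8.94 CPM in the ACHN controls and at 11.1, 9.80 and 9.94 CPM with the inhibitor, where the groups overlapped (log2 fold change 0.10, adjusted p = 0.361). MIR365BHG, which shares the miR-365 seed with MIR193BHG, had a log2 fold change of -0.15 (SE 0.232, adjusted p = 0.635) and was not called.

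MIR210HG, whose miR-210 is a hallmark of the hypoxia response, fell from 6.17 and 5.37 to 3.24 and 2.97 CPM (log2 fold change -0.97, SE 0.117, edgeR adjusted p = 7.64e-06). Among hypoxia genes tied to this host, VEGFA fell by 0.77 and ADM by 0.67 on the log2 scale, HIF1A and EPAS1 had -0.21 and -0.17, and CA9 rose by 0.59, all called. MIR31HG fell from 11.5 and 10.1 to 6.69 and 7.11 CPM (log2 fold change -0.72, SE 0.0906, adjusted p = 1.11e-05). MIR181A2HG, 1 of the 2 hosts of miR-181a, fell from 1.498 and 1.54 to 0.911 and 1.04 CPM (log2 fold change -0.72, SE 0.185, adjusted p = 0.00465). This last call did not pass in DESeq2, and its adjusted p ran from 0.000965 to 0.0762 over 7 alternatives. In 786-O, MIR181A2HG had 216 and 149 counts (log2 ratio -0.55, interval -0.86 to -0.25). In ACHN it stood at 1.36, 1.22 and 1.65 CPM in the controls and at 1.78, 1.80 and 1.81 with the inhibitor, without overlap but not called (log2 fold change 0.36, adjusted p = 0.0722). MIR210HG was not called in ACHN, with 1.15, 1.55 and 1.503 against 1.40, 2.16 and 1.44 CPM, and had 65 and 56 counts in 786-O. Of the hypoxia genes in ACHN, HIF1A fell by 0.19 and EPAS1 rose by 0.37 on the log2 scale, both called. VEGFA (0.09) and ADM (0.21) were not called there. The 786-O log2 ratios were -0.13 for HIF1A, 0.17 for EPAS1, -0.28 for VEGFA and 0.59 for ADM. CA9 was too low for a value in these lines. A part of these genes in the level of MIR210HG was not tested.

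MIR100HG (chromosome 11, 122028325 to 122556721) moved the other way, from 9.10 and 9.37 CPM in the controls to a higher level in both mimic libraries (1229 and 1174 counts, against 504 and 566). Its log2 fold change of 1.07 (SE 0.0707, edgeR adjusted p = 1.41e-08) was the largest rise among host genes over the count minimum in A-498. It holds let-7a-2, so hosts with 1 shared seed changed in opposite directions. MIR99AHG fell by 0.39, MIRLET7A1HG fell by 0.31 and MIRLET7IHG fell by 1.19 on the log2 scale, whereas MIRLET7BHG (-0.03, adjusted p = 0.727) and MIR4500HG (0.20, adjusted p = 0.483) were not called. MIRLET7BHG stood at 29.9 and 27.5 CPM in the A-498 controls and at 29.6 and 29.7 with the mimic, at 44.6 and 52.9 CPM in 786-O, and at 8.27, 8.34 and 9.19 against 8.31, 10.3 and 8.67 CPM in ACHN. The call of MIRLET7A1HG was lost without mimic replicate 2 (log2 fold change -0.27).

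A further 7 host genes called in A-498 follow, and MIR22HG, MIR34AHG and MIR503HG are given with ACHN. The log2 fold change was -0.63 for MIR600HG, -0.54 for MIR155HG, -0.46 for MIR4453HG, -0.36 for MIR4458HG, -0.36 for MIR3936HG, -0.17 for MIR4435-2HG and 0.21 for MIR1915HG. The call of MIR155HG, at 1.68 and 1.77 CPM in the controls and 1.22 and 1.29 with the mimic, was lost without mimic replicate 1 (-0.51). Those of MIR4453HG (-0.35) and MIR1915HG (0.15) were lost without mimic replicate 2, and DESeq2 called none of the 3. MIR1915HG stood at 17.0 and 16.6 CPM in the controls and at 19.7 and 21.3 with the mimic. In 786-O it had 21.1 and 19.3 CPM, and in ACHN 18.8, 17.9 and 20.7 CPM in the controls against 15.7, 18.7 and 19.1 with the inhibitor (log2 fold change -0.09, adjusted p = 0.441). MIR155HG had 11.6 and 8.99 CPM in 786-O (log2 ratio -0.41, interval -0.60 to -0.22) and, in ACHN, 4.34, 4.68 and 4.11 against 3.93, 3.63 and 3.91 CPM (log2 fold change -0.18, adjusted p = 0.187). Without control replicate 3 the host genes called higher numbered 8, since MIR17HG, MIR222HG and MIR3171HG were added.

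**Figure D3:**
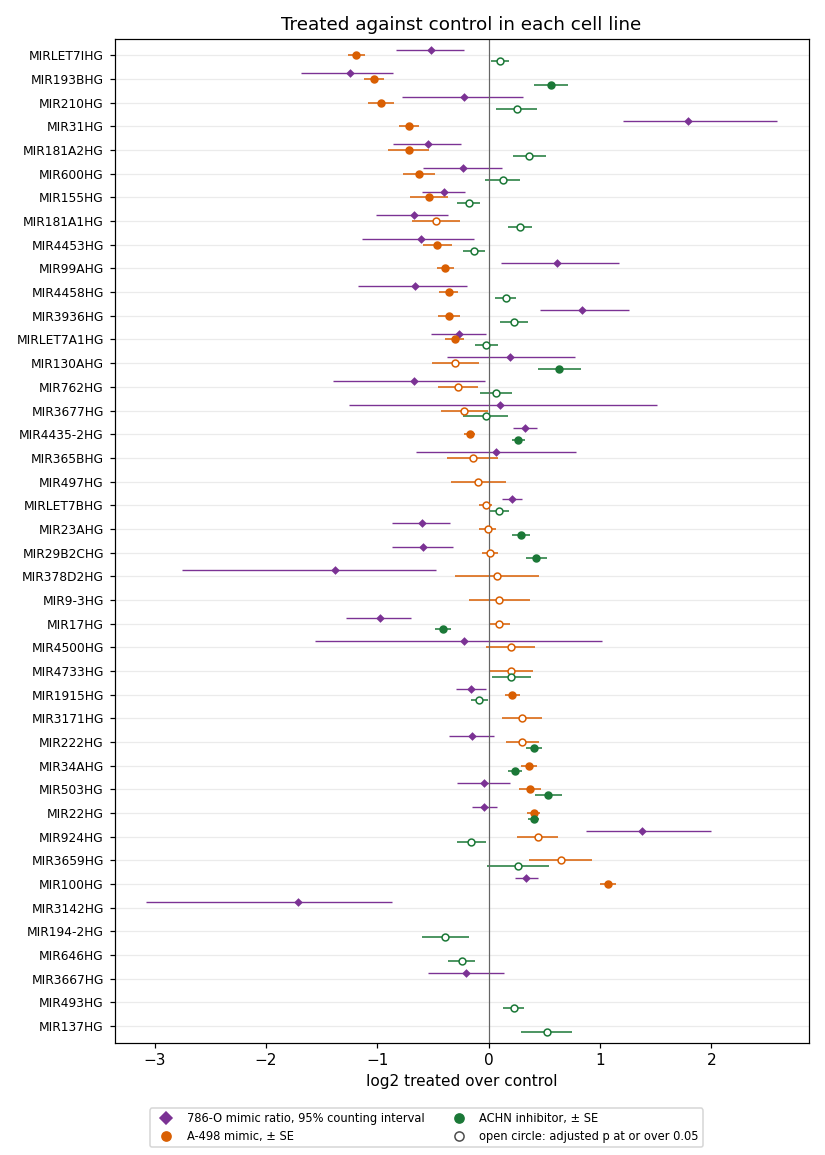
Log2 treated over control for each reported host gene, for the mimic in 786-O (diamonds, 95% counting interval of 2 libraries), the mimic in A-498 (n = 2 per group) and the inhibitor in ACHN (n = 3 per group), the last 2 with SE from edgeR and open circles where the adjusted p was at or over 0.05. MIRLET7IHG (-1.19) and MIR193BHG (-1.03) lie farthest to the left in A-498, and MIR100HG (1.07) farthest to the right.

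With the inhibitor in ACHN, 9 of 31 host genes were higher and 1 was lower, and their median log2 fold change was 0.22 against 0.004 over all genes. Of all 17904 genes tested, 17.3% were called higher and 14.4% lower, and of the 2571 lncRNA genes tested 6.92% were higher and 4.51% lower. The shares among host genes were 29.0% higher and 3.23% lower. As in A-498, only the host genes were held to the count minimum, so these shares are not matched for level. All inhibitor libraries were deeper than all controls, and the share of gene reads in the 42 host genes rose from 0.0205–0.0214% to 0.0230–0.0234%; the part of depth in these results was not tested. Without control replicate 1 the number of higher host genes was 6.

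MIR193BHG, lower with the mimic in A-498, was higher with the inhibitor in ACHN, from 1.32, 1.43 and 1.80 CPM to 2.43, 1.95 and 2.21 CPM. The groups did not overlap (log2 fold change 0.56, SE 0.151, edgeR adjusted p = 0.0079). This call was lost without control replicate 1 (log2 fold change 0.46), and its adjusted p ran from 0.00181 to 0.0518 over 10 alternatives. MIR4435-2HG behaved likewise, at 58.9 and 56.9 CPM in the A-498 controls against 54.2 and 54.1 with the mimic. In ACHN it stood at 27.1, 25.9 and 25.5 CPM in the controls and at 31.9, 29.0 and 32.6 with the inhibitor. Its log2 fold changes were -0.17 (SE 0.0469, adjusted p = 0.0067) and 0.27 (SE 0.0567, adjusted p = 0.00133). The call in A-498 was lost without either mimic replicate (-0.18 without replicate 1 and -0.17 without replicate 2) and with scaling by library size (-0.10). The values of MIR4435-2HG are uncertain because CYTOR is a near-identical copy that can share its reads; CYTOR fell by 0.64 in A-498 and rose by 0.39 in ACHN on the log2 scale.

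A further 3 host genes rose in both lines, that is with the mimic in A-498 and with the inhibitor in ACHN. MIR22HG rose from 37.2 and 34.0 to 51.3 and 47.9 CPM in A-498 and from 27.2, 28.5 and 28.1 to 35.4, 37.1 and 37.4 CPM in ACHN. The groups did not overlap in either line, with log2 fold changes of 0.40 (SE 0.0582, edgeR adjusted p = 4.11e-05) and 0.40 (SE 0.049, adjusted p = 4.7e-06). MIR503HG, the host of the cell cycle inhibitor miR-503, stood at 6.21 and 5.50 against 7.63 and 8.32 CPM in A-498 and at 2.67, 2.20 and 2.38 against 3.16, 3.51 and 3.76 CPM in ACHN. Its log2 fold changes were 0.37 (SE 0.097, adjusted p = 0.00523) and 0.53 (SE 0.121, adjusted p = 0.00232).

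MIR34AHG (chromosome 1, 9148011 to 9198906) was the last of the 3, at 13.0 and 11.7 against 17.1 and 16.3 CPM in A-498 and at 19.6, 21.5 and 19.4 against 21.96, 25.15 and 23.5 CPM in ACHN. No treated library was as low as a control (log2 fold changes 0.36, SE 0.0749, edgeR adjusted p = 0.00098, and 0.23, SE 0.0628, adjusted p = 0.00789). CDKN1A (0.57 in A-498 and 0.82 in ACHN) and MDM2 (1.01 and 0.22) were called higher in both lines.

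Among the 27 host genes over the count minimum in both lines, 15 were called in A-498, 10 in ACHN, 5 in both and 7 in neither. Of all 16708 genes tested in both lines, 56.1% were called in A-498, 32.6% in ACHN and 23.2% in both, so the share of host genes called in both was no larger than that of all genes. The plot of single libraries shows the levels of 12 of the host genes named here.

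**Figure D4:**
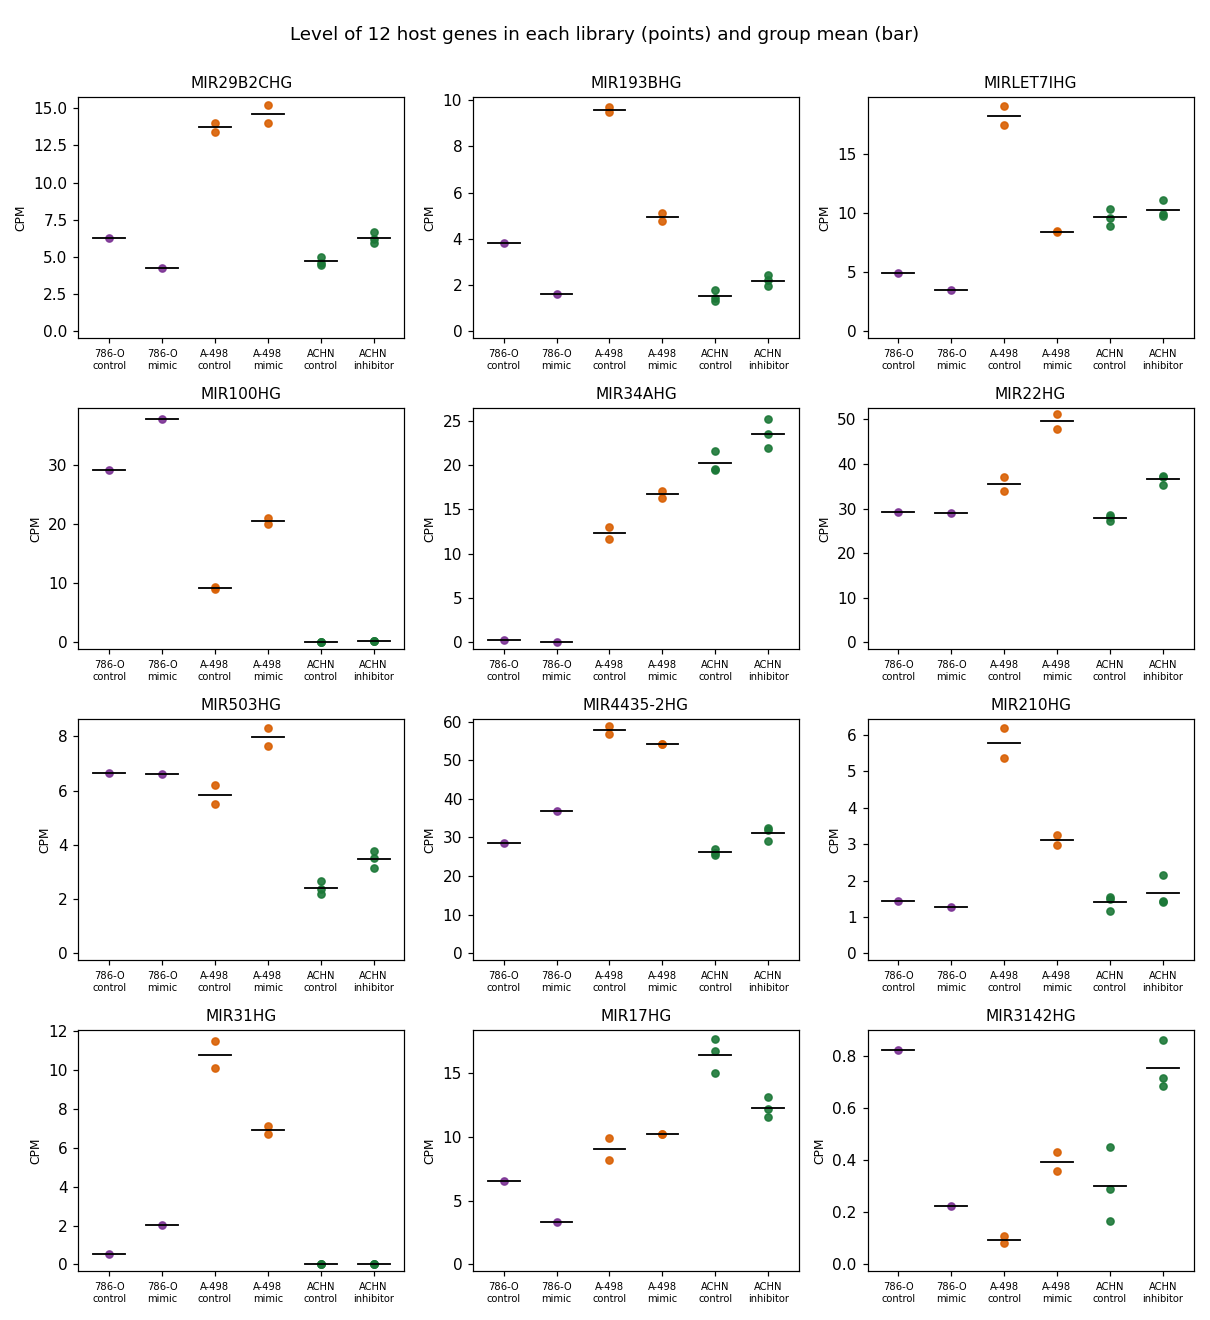
Level of 12 host genes in CPM, with 1 point per library and a bar at the group mean, for control and treated groups of 786-O (n = 1 each), A-498 (n = 2 each) and ACHN (n = 3 each). The y axes start near 0 and differ between genes; MIR193BHG falls from 9.59 to 4.95 in A-498 and rises from 1.52 to 2.20 in ACHN, while MIR31HG is at 0 in ACHN.

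Other rises in ACHN had no counterpart that passed in A-498. MIR130AHG, a host of miR-130a, had the largest called rise in ACHN among host genes over the count minimum, from 0.761, 1.36 and 1.18 to 1.99, 1.45 and 1.57 CPM (log2 fold change 0.63, SE 0.195, edgeR adjusted p = 0.0181). In A-498 it stood at 1.08 and 1.44 against 0.944 and 1.24 CPM, and in 786-O at 1.11 and 1.31. Its counts are low and the call was lost without control replicate 1 (0.41) or without inhibitor replicate 1 (0.48), with adjusted p from 0.00183 to 0.129 over 10 alternatives. MIR222HG rose from 10.2, 10.6 and 10.47 to 14.8, 12.9 and 13.3 CPM (log2 fold change 0.40, SE 0.0729, adjusted p = 0.000318). In A-498 it stood at 2.20 and 2.55 against 3.45 and 2.72 CPM, a log2 fold change of 0.30 that did not pass (adjusted p = 0.108), and in 786-O at 9.51 and 8.74 CPM. MIR23AHG, the host of miR-23a, miR-27a and miR-24-2, rose by 0.29 on the log2 scale (adjusted p = 0.0113). That call was lost without control replicate 1 (0.24) or without inhibitor replicate 3 (0.27), and MIR23AHG had -0.01 in A-498. Whether these effects differ between A-498 and ACHN was not tested.

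MIR17HG (chromosome 13, 91347686 to 91397592), the host of the growth-promoting miR-17-92 cluster of 6 miRNAs, was the 1 host gene that fell in ACHN. It went from 16.7, 17.6 and 15.0 to 13.1, 12.1 and 11.6 CPM, with no overlap (log2 fold change -0.41, SE 0.0738, edgeR adjusted p = 0.000295). MYC and E2F genes are known activators of this host. In ACHN, MYC had -0.06 (adjusted p = 0.413), whereas E2F1 fell by 0.53 and E2F3 fell by 0.14 on the log2 scale. In A-498, MIR17HG stood at 8.16 and 9.94 CPM in the controls and at 10.2 and 10.2 with the mimic (log2 fold change 0.10, adjusted p = 0.424). There MYC fell by 0.52, E2F1 fell by 0.28 and E2F3 rose by 0.46. In 786-O, MIR17HG had 292 counts in the control and 149 with the mimic (log2 ratio -0.98, interval -1.28 to -0.70). The 786-O ratios were -1.06 for MYC, 0.66 for E2F1 and 0.68 for E2F3. A part of these genes in the level of MIR17HG was not tested.

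In 786-O, with 1 library per group and no test, 22 of 32 host genes had a log2 ratio below 0 and 10 above 0, with a median of -0.22 against -0.02 over all genes. At least 2-fold differences were seen for 3 lower and 2 higher host genes (9.38% and 6.25%), where 7.03% of 16881 genes with at least 10 counts in both libraries were 2-fold lower and 3.74% 2-fold higher. The share of reads that could not be placed wholly in exons of a gene was 14.3% in the control and 18.3% with the mimic, and its part in these ratios was not tested. The counting interval lay below 0 for 15 of the 32 host genes and above 0 for 7, where it lay below 0 for 34.7% and above 0 for 30.3% of all genes. It covers counting error only, not the spread between cultures.

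MIR3142HG, the host of the NF-kB-induced miR-146a, had 37 counts in the 786-O control and 10 with the mimic (log2 ratio -1.72, interval -3.08 to -0.87). Below the count minimum in the other lines, it had 6 and 5 counts in the A-498 controls and 22 and 24 with the mimic, and 14, 7 and 18 in the ACHN controls and 45, 45 and 48 with the inhibitor. Those values were called higher in both lines (log2 fold change 1.95, SE 0.449, edgeR adjusted p = 0.00219, and 1.33, SE 0.285, adjusted p = 0.00146), and they are named after their values were seen. So are 3 others called higher in A-498 below the minimum, MIR2052HG (log2 fold change 2.59), MIR9-1HG (1.83) and MIR194-2HG (1.81). TNFAIP3, a classic NF-kB target, had 0.80 in A-498 and 0.66 in ACHN, both called, whereas the 786-O ratio was -1.61 (log2). NFKBIA was called in A-498 (0.50) and not in ACHN (0.00), with -0.85 in 786-O, and NFKB1 and RELA had -0.37 and 0.22 in A-498 and 0.14 and 0.22 in ACHN, all called.

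MIR31HG rose in 786-O from 24 to 89 counts (log2 ratio 1.79, interval 1.21 to 2.59) and MIR924HG from 38 to 103 counts (1.38, interval 0.87 to 1.998). MIR924HG stood at 1.19 and 1.06 CPM in the A-498 controls against 1.74 and 1.47 with the mimic, and at 3.02, 2.53 and 2.33 in the ACHN controls against 2.51, 2.46 and 2.10 with the inhibitor, neither of which passed. MIR378D2HG had 29 and 10 counts in 786-O (-1.38, interval -2.75 to -0.48) and stood at the edge of the count minimum. It had 14 to 21 counts in the A-498 libraries and 8 to 20 in ACHN, with no call. MIR193BHG went from 171 to 72 counts (-1.24, interval -1.68 to -0.86), so it was lower with the mimic in both lines that received it. MIRLET7IHG went from 220 to 155 counts (-0.52, interval -0.83 to -0.22).

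Of the host genes called higher in both other lines, MIR22HG and MIR503HG were close to their control level in 786-O. MIR22HG had 1309 and 1290 counts (log2 ratio -0.04, interval -0.15 to 0.07) and MIR503HG 299 and 293 (-0.05, interval -0.28 to 0.19), so both intervals include 0. MIR4435-2HG went from 28.7 to 36.8 CPM (0.32, interval 0.22 to 0.43) and MIR100HG from 29.2 to 37.8 CPM (0.34, interval 0.23 to 0.44). MIR100HG thus was higher with the mimic in both lines that received it. In ACHN it was below the count minimum and was not tested. It had 5, 3 and 1 counts in the controls there and 20, 8 and 13 with the inhibitor (means 0.0665 and 0.219 CPM), so it was higher with the inhibitor too.

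Of the 13 host genes lower in A-498, all over the minimum in 786-O too, 9 had a 786-O ratio below 0 and 4 above 0 (MIR31HG, MIR3936HG, MIR4435-2HG and MIR99AHG). Ratios below 0 were also found for 3 of the 4 host genes called higher in A-498 and for 8 of the 13 not called, and for 52.3% of all 16881 genes. The difference in mimic effect was tested by assuming that the single 786-O libraries vary like those of A-498, which these data cannot check. It passed the edgeR test for 12 of 30 host genes, 5 lower (16.7%) and 7 higher (23.3%) in 786-O. Of all 22587 genes tested, 29.6% passed in either direction. These calls do not show a difference between the lines beyond these 786-O libraries. Over all genes the split was 2972 lower and 3723 higher, and 3931 and 2796 when libraries were scaled by size alone. MIR17HG had the most negative difference of the 12 (-1.03), with 292 counts in the 786-O control and 149 with the mimic.

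The annotated host transcripts were also searched for the miR-29 seed. The longest transcript of 11 of the 42 host genes (26.2%) holds the letters TGGTGCT, the complement of the miR-29 seed, on its own strand, against 10.6% of the longest transcripts of 18866 GENCODE lncRNA genes. Per kb the numbers were 0.113 and 0.0816, and lengths differ between transcripts. These are matches of letters and were not tested as sites. MIR29B2CHG holds 2 of them in a transcript of 3222 nt, so the host of miR-29b-2 and miR-29c carries letters that pair with the seed of its own product. MIR193BHG and MIR210HG, which fell with the mimic in A-498, hold 1 each, while MIRLET7IHG, which fell most, holds none in 8693 nt. MIR23AHG holds 3 and was not called in A-498. Windows of 30 bases are shown (GRCh38, transcript strand, match in capitals) because they set hosts called lower with the mimic in A-498 (MIR193BHG, MIR210HG and MIR4458HG) beside hosts not called there (MIR29B2CHG and MIR23AHG). MIRLET7BHG, also not called there, has the most matches per kb of the 42 (0.658, 3 matches). MIRLET7A1HG, called lower with the mimic in A-498 (log2 fold change -0.31), holds 2 matches, and its windows are not shown. In MIR4458HG and MIR23AHG the capitals include an A that follows the match.
MIR29B2CHG, chr1:207814376-207814405, minus strand: agaattgggatTGGTGCTtccctgctgatt
MIR193BHG, chr16:14326644-14326673, plus strand: attttctagagTGGTGCTgtccaagacagt
MIR210HG, chr11:567696-567725, minus strand: agtgacagattTGGTGCTtctgtgtgtttc
MIR4458HG, chr5:8460509-8460538, plus strand: ataatgaatgtTGGTGCTAttacatttaag
MIR23AHG, chr19:13841536-13841565, minus strand: ggccctggggcTGGTGCTAgctttgttctc

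Other transcripts that carry miRNAs were counted from lists written with earlier results of these data known. Of 43 further host genes from general knowledge, most of them protein-coding, 37 were tested in each line, 19 of them lower and 5 higher with the mimic in A-498, and with the inhibitor 4 lower and 11 higher. These are 51.4% lower and 13.5% higher in A-498 (27.0% and 25.5% of all genes) and 10.8% lower and 29.7% higher in ACHN (14.4% and 17.3% of all genes). CTDSPL, a phosphatase gene that hosts miR-26a, fell by 1.85 on the log2 scale in A-498 and had 0.01 in ACHN (adjusted p = 0.907). CLCN5, a chloride transporter gene that hosts the miR-188 cluster, fell by 0.91 in A-498, rose by 0.76 in ACHN and was lower in 786-O (log2 ratio -1.17). CTDSPL and CLCN5 were chosen after their values were seen. Of all other genes whose span holds a miRNA gene on the same strand, 1062 in the tables, 866 were tested in A-498 (33.1% lower, 31.9% higher) and 823 in ACHN (17.3% lower, 22.6% higher). Among 15 genes of known regulators of single hosts, most of them named above beside those hosts, the mimic in A-498 gave 7 lower and 7 higher, and of 14 tested in ACHN the inhibitor gave 3 lower and 7 higher (46.7% lower and 46.7% higher, then 21.4% and 50%).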

How the data were processed

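RNA was extracted and libraries were made by the authors with a stranded kit after ribosomal RNA depletion. Per the paper's methods, paired reads were aligned to GRCh38 with HISAT2, and the raw counts deposited by the authors were obtained with HTSeq-count (intersection-strict) on Ensembl release 87, with reverse strand given by the deposited files' names; tool versions were not given in the sources used here. The authors call the replicates biological. They set aside 2 further A-498 libraries as possibly mislabelled, which were not analysed here. The 3 deposited DESeq2 tables (fold changes and p-values of the authors' own comparisons) were not used. The 5 HTSeq summary lines were left out of library sizes.

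Groups were taken from the labels. In each line all genes were fitted in edgeR 4.0.16 (R 4.3.3; TMM, filterByExpr by group) and given its quasi-likelihood test, with Benjamini-Hochberg adjustment and calls at an adjusted p under 0.05. Shares over all genes and over lncRNA genes took every gene that passed this filter, without the count minimum, save for the 786-O ratios. The SE was obtained as the log2 fold change divided by the square root of F. CPM values are raw counts scaled to each library's reads in genes, without TMM factors. In 786-O, log2 ratios of TMM-scaled CPM with prior count 2 were given with exact (Clopper-Pearson) 95% intervals of the 2 counts, from scipy 1.17.1. No molecular identifiers were described, so intervals and floors cover counting error only. The fits were tested on simulated counts that had the same spread in every gene and library. Such counts could not check the spread assumed for the single 786-O libraries. No 2 replicates agreed within counting error (chi-square over its degrees of freedom, 3.87 to 12.2), so none was counted as a repeat.

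Alternatives were library size in place of TMM, DESeq2 1.42.0, no filter on low counts, leaving out each replicate, a replicate block in ACHN, prior count 0.5 and the longest transcript as length. Symbols, exons and miRNA places came from GENCODE v44 and RefSeq on GRCh38, newer than the release that was counted, so per-length levels depend on the annotation. Members, lists and rules were chosen with earlier results of these data known. Per-library values were given, by rule, for MIR29B2CHG, host genes called in both A-498 and ACHN, the 6 with the largest called change in A-498 and in ACHN, the 4 with the largest ratio in 786-O and the 4 highest per exon length in each line. The result of 1 listed gene is not reported here.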

Additional observations from a re-analysis of the deposited data

Results flagged for a closer look

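The edgeR interaction test compared the mimic effect in 786-O with that in A-498. It gave an adjusted p under 0.05 for 12 of 30 host genes, and for 29.6% of all 22587 genes tested. As 786-O has 1 library of each kind, this assumes that its libraries vary like those of A-498, which these data cannot check, and a difference between the lines is not shown. The difference (786-O minus A-498, log2) was 2.65 for MIR31HG, which had 24 and 89 counts in 786-O and a log2 fold change of -0.72 in A-498. It was 1.27 for MIR3936HG, 1.08 for MIR99AHG, 1.03 for MIR924HG, 0.72 for MIRLET7IHG, 0.55 for MIR4435-2HG and 0.29 for MIRLET7BHG. It was -1.03 for MIR17HG, -0.68 for MIR100HG, -0.55 for MIR29B2CHG, -0.54 for MIR23AHG and -0.39 for MIR22HG. In DESeq2 the differences of MIR23AHG, MIR29B2CHG, MIR924HG, MIRLET7BHG and MIRLET7IHG did not pass. Without mimic replicate 2 of A-498 those of MIR29B2CHG, MIR924HG and MIRLET7BHG did not pass, and that of MIRLET7BHG was also lost without mimic replicate 1, with library size for scaling and with no filter on low counts.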

How the results depend on the processing

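In A-498 the host genes called higher numbered 5, 8 with library size in place of TMM and 5 to 8 without each replicate in turn, and those called lower 11 to 14 without each replicate. In ACHN 6 to 11 were higher and 1 was lower without each replicate. Between the controls, 20 to 21 were higher in A-498 and 11 to 13 higher in ACHN. For the difference in mimic effect, DESeq2 called 3 lower and 4 higher host genes, and 4 to 7 and 5 to 8 were called without each replicate; over all genes DESeq2 called 1955 lower and 2153 higher where edgeR called 2972 and 3723. With the longest transcript as length, 3 of the 4 highest host genes stayed among the 4 highest in each line. The cause was not tested. Among the values of single host genes under the alternatives, 1099 kept their direction and side of the threshold, 29 no longer passed, 28 newly passed and 0 reversed.

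Replicate numbers did not pair the ACHN libraries (correlations of same-numbered deviations 0.0418, -0.0504 and -0.00467). With the replicate block 10 host genes were higher and 1 was lower, and 2638 and 3125 genes were lower and higher over all genes. In A-498 the groups share only 1 replicate number, so no paired fit was made. Where leaving out a replicate left 1 library in an A-498 group, it was assumed to vary like the other group. With 2 or 3 libraries per group and host genes of few counts, small changes were not detectable at this depth.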
